A study of Rattus norvegicus with 8 samples.

Results

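Genes that mark the thalamus were read in the hypothalamus of nursing rat mothers, as a sign of neighbouring thalamic tissue in the dissected samples. The 10 genes are Shox2, Tcf7l2, Lef1, Rora, Prkcd, Ptpn3, Plekhg1, Rgs16, Calb2 and Cdh9. They were chosen by name among the 26269 gene names on the array, with earlier results of these data known. The array held 16 non-control probes for them, and all 10 genes entered the test of 16574 genes. Hypothalamic RNA came from 4 lactating Wistar dams exposed to TCDD, a dioxin that binds the aryl hydrocarbon receptor, and from 4 control dams, all at postpartum day 7. The sources used here do not give the age of the dams, nor how, when or how much TCDD they received. Each dam was read on 1 Agilent array in 1 colour. The TCDD arrays shared 1 slide and the control arrays another, so slide and exposure cannot be told apart. The tissue label of every sample is hypothalamus, but the titles end in the letters Th, which the labels do not explain. Nothing in the labels gives how the tissue was cut out. The number of arrays limits the precision of every value below.

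The thalamus lies directly above the hypothalamus and relays sensory and motor signals to the cortex. Its excitatory relay neurons are known for Tcf7l2, a transcription factor through which Wnt signals act on DNA, and many of them for Shox2, a homeobox factor. Prkcd, a protein kinase C, is a known mark of sensory relay nuclei. None of these genes is exclusive to the thalamus. Calb2, which encodes the calcium-binding protein calretinin, and Rora, a nuclear receptor, are also expressed by hypothalamic neurons.

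The second probes of Shox2, Tcf7l2, Ptpn3 and Plekhg1 and an overlapping pair of Lef1 probes are printed because they give a further reading of a gene's transcript on the same arrays. They come from the scanner files, each 60 bases long, 5′ to 3′. On rn4, the Shox2 probe lies at chr2:156883840-156883899 on the minus strand, the Ptpn3 probe at chr5:75108272-75108331 on the minus strand and the Plekhg1 probe at chr1:34677506-34677565 on the plus strand. The Tcf7l2 probe covers 4354 bases of the plus strand, at chr1:262211540-262215893, so its letters are not contiguous in the genome. Both Lef1 probes lie on the plus strand, at chr2:228659730-228659789 and chr2:228659738-228659797. They overlap by 52 bases and differ at 4 of them, shown in capitals. Counted from the 5′ end of A_64_P052007, with its base first, these are G11A, T32C, T38G and G44C.
Shox2 A_44_P412265: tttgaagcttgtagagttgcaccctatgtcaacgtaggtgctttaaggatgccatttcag
Tcf7l2 A_64_P040190: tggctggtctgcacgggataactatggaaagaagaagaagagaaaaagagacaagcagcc
Ptpn3 A_64_P010763: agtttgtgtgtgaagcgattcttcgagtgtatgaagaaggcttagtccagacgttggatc
Plekhg1 A_64_P145246: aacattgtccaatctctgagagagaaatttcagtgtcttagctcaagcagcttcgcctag
Lef1 A_64_P166158: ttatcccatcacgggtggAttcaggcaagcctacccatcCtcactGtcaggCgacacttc
Lef1 A_64_P052007: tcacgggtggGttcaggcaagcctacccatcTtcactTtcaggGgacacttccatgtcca

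All values are log2 signals relative to the array's own 75th percentile over non-control spots, and levels of different probes are not compared. That percentile was 806 on TCDD replicate 1 and 756 on control replicate 1, the arrays at position 1 of their slides, and 973 to 1077 on the other 6 arrays, control replicate 4 among them at 1051. The share of probes well above background was 61.7% on TCDD replicate 1 and between 65.0% and 66.7% on the other arrays. TCDD replicate 1 also had the most spots marked as outliers, 581, against 319 to 456 on the others. Of 16 hypothalamus genes (peptides and transcription factors), 14 entered the test, each well above background on all 8 arrays. Of the other 2, Rax was so on 5 arrays and Otp on 0.

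No thalamus marker passed the test between TCDD and control dams, and most of them varied widely between dams of the same group. In limma, 0 of the 10 genes passed an adjusted p of 0.05, and 0 stood at an unadjusted p under 0.05. The last count was 3 without control replicate 2, 1 without TCDD replicate 2 and 0 without any other single array. Among all genes, 1394 of 16595 stood at an unadjusted p under 0.05 without control replicate 2. Without TCDD replicate 2, 1797 of 16582 did. With all 8 arrays, 0.0241% of the 16574 genes passed adjustment (4 genes, all higher in TCDD dams). An unadjusted p under 0.05 was found for 10.8%, with 7.95% higher and 2.82% lower in TCDD dams. Of the 10 genes, 9 were higher and 1 was lower in TCDD dams, where 51.5% of all genes were higher. Their median log2 difference was 0.26, beside 0.0042 over all genes. Shox2, 1 of the 9 higher genes, entered the test only through the TCDD group. It was well above background on 4 TCDD and 2 control arrays. Without it the median was 0.25, over 9 genes. The groups overlapped in all 10 genes, while 7.05% of all genes did not overlap between the groups. The p-values measure the spread between these arrays, since the labels number the replicates without saying how the dams were kept. With normexp, which estimates the background from each array's own signals, the median was 0.057. It was 0.082 without control replicate 1, 0.10 without control replicate 4 and 0.14 without TCDD replicate 3, and 0.41 both without TCDD replicate 1 and without control replicate 2.

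**Figure D1:**
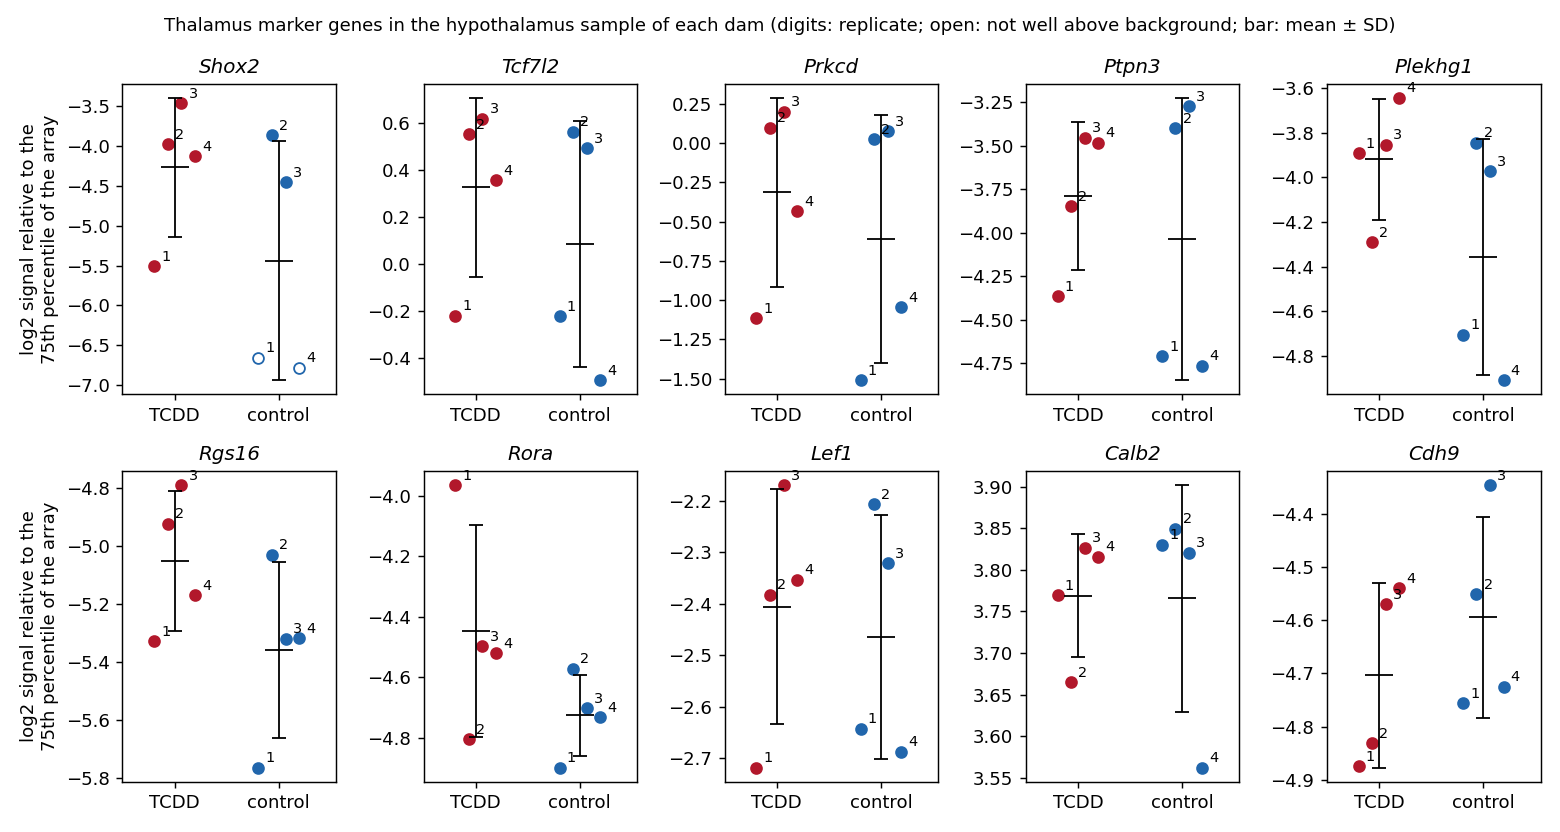
Log2 signal of the 10 thalamus marker genes (y axis, relative to the 75th percentile of the array) in 4 TCDD and 4 control dams, with digits for replicates, open circles for arrays not well above background, and bars for mean ± SD. The groups overlap in every panel, and control replicates 2 and 3 lie above control replicates 1 and 4 in 8 of 10 panels.

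Among the transcription factors, Shox2 had the widest range of values, but 2 of its control arrays were not well above background. Its signal was -5.51, -3.98, -3.47 and -4.13 in TCDD replicates 1 to 4, against -6.66, -3.87, -4.46 and -6.78 in control replicates 1 to 4. TCDD replicate 1 was the lowest of its group, and control replicates 1 and 4 were lower still and not well above background. The means were -4.27 ± 0.87 in TCDD and -5.44 ± 1.5 in control dams (SD, n = 4 each). The log2 difference of 1.17 (SE 0.74, 95% interval -0.53 to 2.87, limma adjusted p = 0.660) rests on background values in those 2 control arrays. It is therefore no measured difference, and no fold is given. With normexp background correction it was 0.36. The second Shox2 probe was well above background on TCDD replicates 2 and 3 and control replicates 2 and 3 alone.

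Tcf7l2 gave -0.22, 0.55, 0.62 and 0.36 in TCDD replicates 1 to 4, against -0.22, 0.56, 0.49 and -0.49 in control replicates 1 to 4. TCDD replicate 1 and control replicates 1 and 4 lay below the other 5 arrays, and the groups overlapped. The difference was 0.24 (SE 0.28, 95% interval -0.40 to 0.88, limma adjusted p = 0.833). It was 0.42 without TCDD replicate 1 and 0.049 without control replicate 4. The second probe, printed above, gave -1.60, -0.40, -0.39 and -0.96 in TCDD dams, against -2.04, -0.67, -0.79 and -2.40 in control dams. The same 3 arrays were lowest, over a wider range. Its difference, not tested, was 0.64. Across the 8 arrays the Tcf7l2 probes correlated at r = 0.98, a description of probes that share their arrays.

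Lef1 encodes a relative of Tcf7l2 that also acts in Wnt signalling. It gave -2.72, -2.38, -2.17 and -2.35 in TCDD replicates 1 to 4, against -2.64, -2.21, -2.32 and -2.69 in control replicates 1 to 4. The low arrays were again TCDD replicate 1 and control replicates 1 and 4. The difference was 0.058 (SE 0.15, 95% interval -0.28 to 0.39, limma adjusted p = 0.938), and its sign turned without TCDD replicate 3, control replicate 1 or control replicate 4 and with the mean of the probes. The overlapping probes differed by -0.0011 (A_64_P166158) and -0.13 (A_64_P052007) between TCDD and control dams, neither tested, and correlated with each other at r = 0.90 over the 8 arrays.

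Rora followed these arrays only in part. Its signal was -3.96, -4.81, -4.50 and -4.52 in TCDD replicates 1 to 4, against -4.90, -4.57, -4.70 and -4.73 in control replicates 1 to 4. Control replicates 1 and 4 were again the lowest of their group, but TCDD replicate 1, low for the other factors, was the highest array. The difference was 0.28 (SE 0.17, 95% interval -0.10 to 0.66, limma adjusted p = 0.629). It was 0.12 without TCDD replicate 1 and 0.067 with normexp.

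Among the signalling genes, Prkcd was measured on 10 spots per array. Spots of an array share the dam, RNA, labelling and hybridisation, so their spread covers the reading of spots alone. Its signal was -1.11, 0.096, 0.20 and -0.44 in TCDD replicates 1 to 4, against -1.51, 0.022, 0.074 and -1.04 in control replicates 1 to 4. TCDD replicate 1 and control replicates 1 and 4 were lowest, and TCDD replicate 4 lay between them and the rest. The SD between spots of an array was 0.036 to 0.067, and the SD between dams was 0.60 in the TCDD and 0.79 in the control group (n = 4 each). The spots of the 3 low arrays did not overlap with those of the other 5 arrays. The difference between the groups was 0.30 (SE 0.43, 95% interval -0.68 to 1.28, limma adjusted p = 0.871), and between 0.0016 and 0.57 when 1 array at a time was left out.

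**Figure D2:**
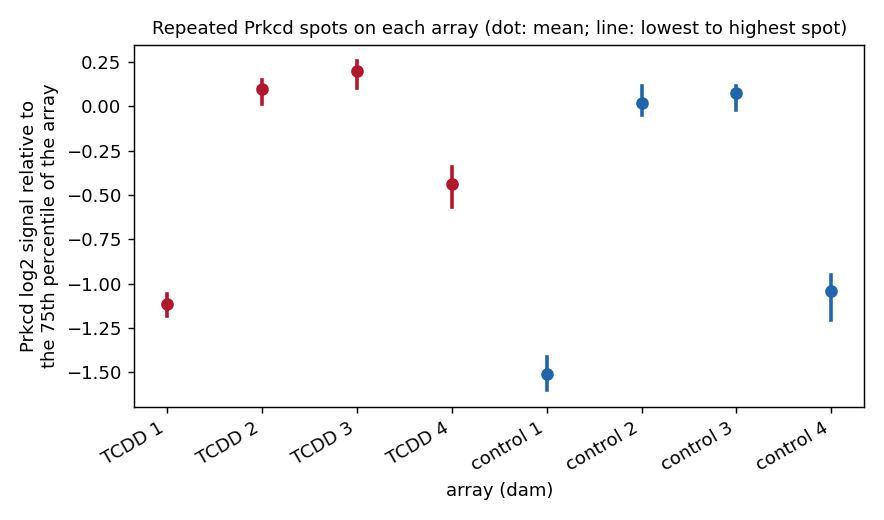
Log2 signal of Prkcd (y axis, relative to the 75th percentile of the array) on each array, with dots for the mean of its spots and lines from the lowest to the highest of 9 or 10 spots kept. Spots of an array share its RNA and labelling. The means run from -1.51 on control replicate 1 to 0.20 on TCDD replicate 3.

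Ptpn3, a protein tyrosine phosphatase, gave -4.37, -3.85, -3.45 and -3.48 in TCDD replicates 1 to 4, against -4.71, -3.40, -3.27 and -4.76 in control replicates 1 to 4. The low arrays were those of Tcf7l2. The difference was 0.25 (SE 0.39, 95% interval -0.66 to 1.15, limma adjusted p = 0.891), and 0.047 with normexp. It was 0.50 without control replicate 3 and 0.0054 without control replicate 4. The second Ptpn3 probe was well above background on 0 TCDD arrays and on control replicate 2 alone, so no difference is given for it.

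Plekhg1 encodes a guanine nucleotide exchange factor, and its probes gave unlike patterns. The probe used in the test gave -3.89, -4.29, -3.86 and -3.64 in TCDD replicates 1 to 4, against -4.70, -3.84, -3.97 and -4.91 in control replicates 1 to 4. The probe printed above gave -5.52, -4.32, -4.39 and -4.46 in TCDD dams, against -5.54, -4.32, -3.72 and -5.45 in control dams. Control replicates 1 and 4 were low on both probes, and TCDD replicate 1 only on the second. The log2 difference was 0.44 for the first (SE 0.26, 95% interval -0.15 to 1.03, limma adjusted p = 0.626; 0.12 with normexp) and 0.083 for the second, not tested. The first was 0.25 without control replicate 4. The probes correlated at r = 0.58 over the 8 arrays.

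Rgs16 encodes a protein that shortens G-protein signals. Its signal was -5.33, -4.92, -4.79 and -5.17 in TCDD replicates 1 to 4, against -5.76, -5.03, -5.32 and -5.32 in control replicates 1 to 4. Control replicate 1 was the lowest array and TCDD replicate 3 the highest. The difference was 0.31 (SE 0.17, 95% interval -0.086 to 0.70, limma adjusted p = 0.597), 0.036 with normexp and 0.17 without control replicate 1. Rgs16 had the lowest adjusted p of the 10 genes.

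Calb2 and Cdh9, a cadherin of cell adhesion, varied least. Calb2 gave 3.77, 3.66, 3.83 and 3.82 in TCDD replicates 1 to 4, against 3.83, 3.85, 3.82 and 3.56 in control replicates 1 to 4. Only control replicate 4 stood apart, below the others. The difference was 0.0034 (SE 0.077, 95% interval -0.17 to 0.18, limma adjusted p = 0.994), and its sign turned with the scaling used. Cdh9 gave -4.87, -4.83, -4.57 and -4.54 in TCDD dams, against -4.76, -4.55, -4.35 and -4.72 in control dams. It was the single gene lower in TCDD dams, by a difference of -0.11 (SE 0.12, 95% interval -0.38 to 0.16, limma adjusted p = 0.816). This was -0.16 without TCDD replicate 4 and -0.026 without control replicate 3.

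**Figure D3:**
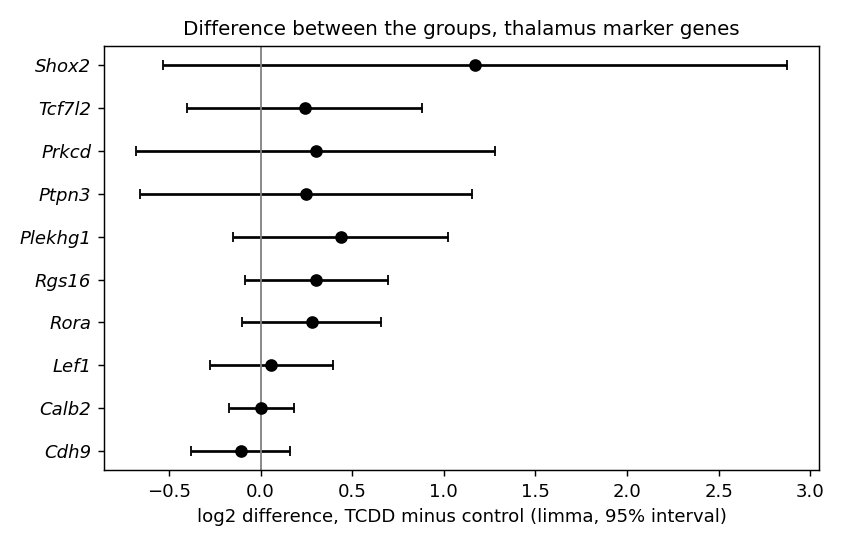
Log2 difference, TCDD minus control (x axis), of each thalamus marker gene, with 95% intervals from limma on 4 TCDD and 4 control arrays. Every interval includes 0, and that of Shox2, from -0.53 to 2.87, is the widest. Shox2 was well above background on 4 TCDD and 2 control arrays, so its interval rests in part on background values.

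The spread between dams of a group set most of these genes apart from the typical gene. The pooled within-group SD was 1.22 for Shox2, 0.70 for Prkcd, 0.65 for Ptpn3, 0.46 for Tcf7l2 and 0.42 for Plekhg1, and the median over all genes was 0.12. The SD of Shox2 includes 2 control arrays not well above background, so it is no measured spread. Of all genes tested, 1.64% varied more than Prkcd and 4.34% more than Tcf7l2. Calb2, at 0.11, was exceeded by 56.1% of genes. A wide spread was not particular to the markers. The median SD was 0.346 over the 10 markers, Shox2 included, and 0.345 over 11 other thalamus genes read below. It was 0.26 over the genes of the reticular nucleus and prethalamus, 0.24 over the hypothalamus genes and 0.16 over the Wnt genes. Genes of like signal were not compared. In bulk tissue, fewer cells of a type and less RNA per cell cannot be told apart.

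The dams that were low for 1 gene tended to be low for others. Control replicates 2 and 3 were the highest 2 of their group in 8 of the 10 genes, an order seen in 15.3% of all genes. TCDD replicate 1 was the lowest of its group in 7 of the 10, against 35.1% of all genes, and both held in 6 of the 10, against 6.60%. Shox2 counts in each of these numbers of markers, though it was not well above background on control replicates 1 and 4. These orders were noticed in the values and are a description with no test. Control replicate 4 shared the low values without the low 75th percentile of the position 1 arrays. The part of dissection or of slide position in these values was not tested.

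Co-variation was read on deviations from the group mean, which also removes the slide, for the genes other than Shox2, which was dim on 2 arrays. Of the 36 pairs among these 9 genes, 29 correlated positively and 5 reached r of 0.9, and the median r was 0.65. By exact permutation within each group (576 orders, 2-sided), 10 pairs had p under 0.05 and 0 passed adjustment over the 36 pairs (smallest adjusted p = 0.0982). The smallest p these orders can give is 0.00174, which for a lone pair adjusts to 0.0625, so at least 2 pairs at that limit were needed for a call. The 10 became 6 with normexp, 7 with scaling to the array median and 9 in the authors' value table. They became 11 with quantile normalization and 13 with the mean of each gene's probes. Without 1 array the count ran from 5 (TCDD replicate 3) to 10 (control replicate 4), and it was 2 without both position 1 arrays. Leaving out arrays leaves fewer orders, 144 with 7 arrays, and so a higher smallest possible p. The counts with arrays left out therefore cannot be compared with the 10. With the mean of each gene's probes, 5 pairs passed (smallest adjusted p = 0.0469). The smallest p came from Tcf7l2 with Lef1, at r = 0.96 (exact permutation p = 0.00347, adjusted p = 0.0982). Over the 8 arrays themselves that pair had a Pearson r of 0.95 and a Spearman correlation of 0.86, and r stayed at 0.94 without the 2 arrays farthest from the median of Tcf7l2. For Prkcd with Rgs16, r was 0.87 (exact permutation p = 0.0104, adjusted p = 0.0982). Over the 8 arrays its Pearson r was 0.84 and its Spearman correlation 0.86, with an r of 0.64 without the 2 farthest arrays. Other pairs went both ways without the 2 arrays farthest from the first gene's median. Pearson r fell from 0.81 to 0.26 for Ptpn3 with Plekhg1 and from 0.69 to -0.19 for Tcf7l2 with Plekhg1. It rose from 0.93 to 0.98 for Tcf7l2 with Prkcd and from 0.74 to 0.91 for Ptpn3 with Cdh9. Because 3 arrays lie below the other 5 for Tcf7l2, Lef1 and Ptpn3, and each set holds fewer than 6 arrays, no correlation is given inside either.

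Each gene was then set against the mean deviation of the other 8 genes. Ptpn3 had r = 0.97, Lef1 0.93, Tcf7l2 0.90, Prkcd 0.86, Cdh9 0.81, Plekhg1 0.77, Rgs16 0.69, Calb2 0.50 and Rora -0.099. Shox2, kept out of that mean, had r = 0.98 with Tcf7l2, 0.97 with Lef1 and -0.14 with Rora. These values rest in part on control replicates 1 and 4, where Shox2 was not well above background. Rora had the lowest value and Calb2 the next.

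A second list of 15 genes known from the thalamus, not among the 10, was read for the same order of dams. It was chosen with earlier results of these data known and read on the same arrays, so it is no independent test. Of the 15 genes, 13 were on the array and 11 were tested. None was called, 0 stood at an unadjusted p under 0.05, and the median log2 difference was 0.13. Control replicates 2 and 3 were the highest of their group in 9 of the 11, and in 6 of the 11 TCDD replicate 1 was also the lowest of its own. Among the 10 that were well above background on all 8 arrays, the median r with the mean deviation of the markers was 0.84, and 4 of them, or 40.0%, reached 0.9. Over 15913 genes the median was 0.076, and 72, or 0.452%, reached 0.9, which includes marker genes that form the mean. The 4 genes were the synapse-organising protein Slitrk6 at r = 0.93, the receptor partner Ramp3 at 0.93, the calcium-binding protein Necab1 at 0.92 and the axon guidance protein Ntng1 at 0.91, Necab1 named by the rule and the others after their values were seen.

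Ramp3 shows the pattern, with -2.22, -2.22, -1.74 and -2.11 in TCDD replicates 1 to 4, against -2.40, -1.81, -1.84 and -2.68 in control replicates 1 to 4. Control replicates 2 and 3 were again high. The other genes of the list named by the rule were the RNA-editing enzyme Adarb1, at a group difference of 0.13 and r = 0.66, the homeobox factor Lhx2, at 0.018 and r = -0.37, and troponin Tnnt1, at 0.53 (SE 0.62, limma adjusted p = 0.836) and r = -0.44. Tnnt1 gave -0.054, -1.67, 0.34 and -1.64 in TCDD dams, against 0.21, -1.87, -1.94 and -1.56 in control dams, so TCDD replicates 1 and 3 and control replicate 1 stood high. Gbx2, a homeobox factor of the developing thalamus, was well above background on 5 arrays, TCDD replicates 2, 3 and 4 and control replicates 1 and 2, and was not tested. Foxp2 was so on control replicate 2 alone.

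**Figure D4:**
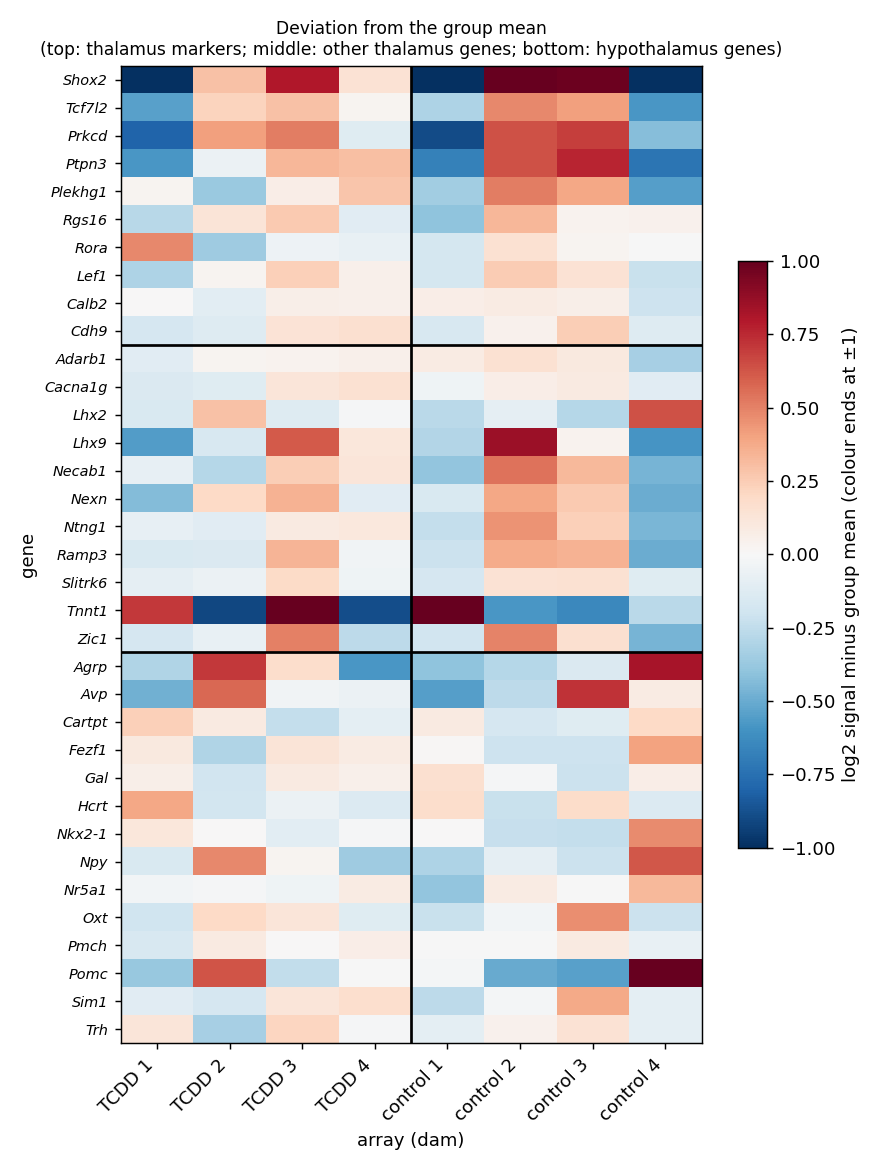
Log2 signal minus the group mean (colour) for the 10 thalamus markers, 11 other thalamus genes and 14 hypothalamus genes (rows) on 4 TCDD and 4 control arrays (columns). Control replicates 2 and 3 are red and control replicates 1 and 4 blue in most rows of the upper blocks. In the 14 hypothalamus rows, control replicates 1 to 4 are below their group mean in 9, 12, 8 and 5. TCDD replicates 1 to 4 are below theirs in 8, 6, 6 and 9.

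Hypothalamus genes had a median r of -0.23 with the marker mean over 14 genes, with 0 at 0.9 or above. Control replicates 2 and 3 were the highest of their group in 4 of the 14. The difference in r between the lists was not tested. None passed limma, 1 stood at an unadjusted p under 0.05, and the median difference was 0.024. Among those named by the rule, Avp (vasopressin) had a log2 difference of -0.55 and r = 0.43, Oxt (oxytocin) -0.22 and 0.71, and Pmch (melanin-concentrating hormone) 0.070 and 0.56. Trh, the thyrotropin-releasing hormone gene, stood at 0.29 (limma adjusted p = 0.444) and r = 0.43. The genes named were chosen for brightness or difference, and 8 of the 14 had an r below 0.

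Genes of the thalamic reticular nucleus and prethalamus, the inhibitory neighbours of the relay nuclei, had a median r of -0.21 over 8 genes and 0 calls. Parvalbumin (Pvalb) stood at 0.29 (limma adjusted p = 0.409) and r = -0.36, the peptidase Ecel1 at -0.022 and r = -0.41, and the homeobox factors Dlx1 and Meis2 at 0.016 and 0.22, with r of -0.15 and 0.66. Of 6 habenula genes, which mark a small nucleus above the thalamus, Gpr151, Pou4f1 and Lrrc55 were well above background on 0 arrays. The acetylcholine receptor genes Chrna3 and Chrnb4 stood at -0.32 (limma adjusted p = 0.293) and 0.076. The factor Nhlh2 was well above background on 3 TCDD and 4 control arrays. It entered the test through the control group alone, so no difference is given for it.

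Markers of cortex, hippocampus and striatum bear on other tissue next to the cut. Tbr1, Slc17a7 and Prox1, which mark cortical or hippocampal excitatory neurons, and the striatal genes Drd1a and Gpr6 were well above background on 0 arrays. The measured genes of these lists had a median r of 0.11 (4 cortical and hippocampal genes) and -0.19 (6 striatal genes), with 0 calls. Emx1 stood at 0.23 (limma adjusted p = 0.154, the groups not overlapping), Neurod2 at 0.057 and Wfs1 at -0.092. Of the striatal genes, the signalling inhibitor Ppp1r1b and the receptor Adora2a both stood at 0.12, the dopamine receptor Drd2 at -0.13 and enkephalin (Penk) at 0.022.

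In the Wnt pathway that Tcf7l2 and Lef1 serve, 10 of 16 listed genes were tested and 0 were called. At an unadjusted p under 0.05, 1 was higher and 0 were lower in TCDD dams, and the median difference was 0.036. The Wnt co-receptor Lrp6 gave -0.98, -1.05, -1.06 and -1.16 in TCDD dams, against -1.55, -1.52, -1.35 and -1.30 in control dams. The groups did not overlap, and the difference of 0.36 (SE 0.073, limma adjusted p = 0.134) did not pass. The receptor Fzd1 stood at 0.18, the secreted Wnt regulator Dkk3 at 0.0087 and the kinase Gsk3b at 0.011. The factor Sp5 was well above background on 2 TCDD and 4 control arrays, and no difference is given for it. The median r of the list was -0.16, and the ligand gene Wnt3, named after its value was seen, reached 0.96.

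**Figure D5:**
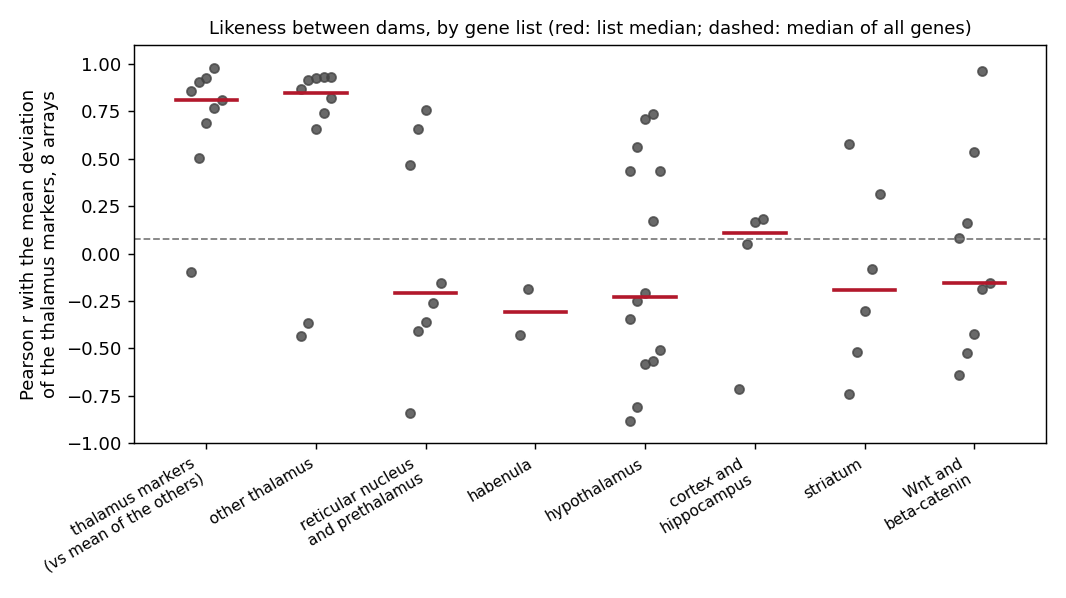
Pearson r over the 8 arrays (y axis) between each gene's deviations from the group mean and the mean deviation of the thalamus markers, by gene list (x axis; each marker is set against the mean of the other markers), with red list medians and a dashed line at the median of all genes, 0.076. The 2 thalamus lists lie highest, at a median of 0.84 for the second list, and the hypothalamus list has a median of -0.23.

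Outside the markers, the genes most like their mean were sought among 728 genes with a symbol, well above background on all 8 arrays, and with a log2 range of at least 1. Highest were Gabrd, a GABA receptor subunit, at r = 0.96, the neuropeptide gene Cck at 0.96, Necab1 at 0.92, the actin-binding protein Lmod2 at 0.92 and the protein-modifying enzyme Padi3 at 0.88. Cck gave 3.15, 3.75, 3.85 and 3.51 in TCDD replicates 1 to 4, against 3.00, 4.03, 4.01 and 2.77 in control replicates 1 to 4. Its low arrays were those of Tcf7l2. Lowest were Tex15 at -0.90, Lrat, an enzyme of retinoid storage, at -0.88, the hypothalamic peptide gene Npvf at -0.83, the mitochondrial gene Ccdc109b at -0.82 and the phospholipase Pla2g12a at -0.82. Npvf gave 1.76, 1.56, 1.47 and 1.54 in TCDD dams, against 2.01, 1.73, 1.30 and 2.36 in control dams, so control replicates 1 and 4 were highest where the markers were lowest. None of these 10 genes passed limma (adjusted p of 0.675 to 0.981).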

How the data were processed

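The deposited scanner files hold intensity per spot, and per the file headers the software was Agilent Feature Extraction 10.7.1.1. RNA was extracted with RNeasy and labelled with Cy3, per the labels' protocols. The deposited value table, an alternative here, holds intensity scaled by the authors to a common median of 65.1 in every column, with r of at least 0.999 against the scanner signals.

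Log2 of the deposited processed signal intensity was set against the 75th percentile of each array's 42877 non-control spots. Spots marked as outliers were dropped per array, and spots of a probe were averaged. Probes well above background on all 4 arrays of a group were kept (19102 of 30367), and the brightest probe stood for a gene. Limma 3.58.1 in R 4.3.3 (lmFit, eBayes) compared 4 TCDD with 4 control arrays, with Benjamini-Hochberg adjustment over 16574 genes and no covariate. The procedure was tested on simulated data. Figures were drawn with matplotlib 3.10.9.

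The markers and lists were chosen with earlier results of these data known. Named were all markers, in each list the genes called or else the 3 of highest signal and the 2 of largest difference, and the 5 genes at each end of r with the marker mean. Probe coordinates are those of the scanner files (rn4). Alternatives changed the background correction, scaling, filter, probe rule, variance model, replicate block and arrays used.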

Additional observations from a re-analysis of the deposited data

Results flagged for a closer look

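Over the 16 probes of the markers and both groups, 32 sets of 4 arrays were examined for 1 array far from the rest, and 3 were found. Dixon's ratio, the gap to the nearest array over the whole range, passes its 95% critical value by chance in about 1 in 20 sets. For the Plekhg1 probe A_64_P145246, TCDD replicate 1 was lowest at -5.52, with the nearest TCDD array at -4.46 (ratio 0.886). For the Lef1 probe A_64_P166158, TCDD replicate 1 was lowest at -4.18, with the nearest TCDD array at -3.84 (ratio 0.837). For Calb2, control replicate 4 was lowest at 3.56, with the nearest control array at 3.82 (ratio 0.90). Neither the Plekhg1 nor the Lef1 probe was the one used in the test of its gene.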

How the results depend on the processing

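In each of 19 alternatives 0 of the markers tested (9 with the filter on all 8 arrays, which drops Shox2, and 10 otherwise) and 0 genes of the comparison lists passed limma, and the median difference of the markers stayed above 0, from 0.057 with normexp to 0.41. Over all genes, the 4 calls became 20 with normexp, 27 with scaling to the array median, 34 with a trended and robust variance model, 0 without the filter (2032 genes at an unadjusted p under 0.05), and 2 without both position 1 arrays, an alternative chosen after seeing the data. Leaving out 1 array gave 0 to 8 calls: 8 without control replicate 3, 3 without TCDD replicate 1, 1 without TCDD replicate 4, and 0 without TCDD replicate 2 or 3 or control replicate 1, 2 or 4. The cause was not tested. Calb2 turned to -0.0092 with normexp, -0.0043 with quantile normalization, -0.0027 with the array median, -0.027 in the authors' value table and -0.011 with the percentile taken over probes (chosen after seeing the data), and ranged from -0.064 to 0.038 without 1 array. Lef1 turned to -0.025 with the mean of its probes and ranged from -0.020 to 0.16 without 1 array. The other 8 markers kept their direction. Pairs of markers past the threshold numbered 5 with the mean of probes and 0 in the other 16 alternatives. With 7 arrays the smallest possible p is 0.00694, and at least 6 pairs at that limit are needed for a call, so the 0 without 1 array says little.

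Replicate numbers give the position on the slide. Deviations of same-numbered arrays correlated at -0.046 to 0.23, and 2 of 4 TCDD arrays correlated best with their own number. With the replicate block, 0 genes were called (2139 at an unadjusted p under 0.05), and 3 of the 10 markers stood at an unadjusted p under 0.05, with 0 past adjustment (Prkcd adjusted p = 0.337, Rgs16 0.273). The 4 arrays per group and the dim signals of Shox2 limit what could be detected.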
